A study of Mus musculus with 9 samples.

Results

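Fos, Fosb, Jun, Junb, Jund, Egr1, Egr2, Egr3, Nr4a1 and Ier2 are 10 genes of the immediate-early AP-1, Egr and Nr4a1 group. They were taken by name, with no threshold on their values, after earlier results of these data were known. All 10 were found among the 24346 genes listed, and all 10 had a mean of at least 1 FPKM, the filter on low values, in each comparison. FPKM is the number of fragments per kilobase of exon, scaled to the mapped fragments of the library. Levels are set side by side on that scale, and comparisons between libraries depend on the scaling, for which alternatives are given at the end.

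Immediate-early genes are transcribed within minutes of a stimulus, with no need for new protein synthesis. Antigen receptor and toll-like receptor signals reach them in B cells through MAP kinases and the transcription factors SRF and CREB. The Fos and Jun proteins pair to form AP-1, the Egr proteins are zinc finger transcription factors, and Nr4a1 (Nur77) is an orphan nuclear receptor widely used to report antigen receptor signaling in B cells. These genes are also known to respond to the handling of tissue and cells, so that the levels in sorted cells can hold both the state of the cells in the animal and the time spent on isolation.

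The RNA was from primary splenic B cells of wild-type C57BL6 mice, sorted into 3 groups of 3 libraries. The libraries of a group came from separate mice. FO B (Young) are follicular B cells of mice aged 8 weeks, FO B (Aged) are follicular B cells of mice aged 50 weeks, and ABCs (Aged) are age-associated B cells of mice aged 50 weeks. All were sorted by surface markers that included B220hi CD43- CD21lo, with FO B cells taken as CD23+ and ABCs as CD23- CD11b+ CD11c+, so that subset and sort gate cannot be told apart. A difference in bulk RNA can come from more cells that express a gene or from more RNA of it per cell, and these cannot be told apart either. The labels do not state how long isolation took, or whether both populations of aged mice came from the same animals.

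The sorted identities were checked first. Cd79a, which encodes a signaling chain of the B cell antigen receptor, was at 2462 to 3562 FPKM over the 9 libraries. It was 1 of 6 B lineage genes read, of which 4 were not called in limma between ABCs and FO B (Aged). Cd22 was higher in ABCs, with a mean of 885 FPKM compared with 423, and Pax5 was lower, with 20.3 compared with 29.6. Fcer2a, which encodes CD23, was at 697 to 728 FPKM in FO B (Aged) and at 0.463 to 6.95 FPKM in ABCs, whereas Itgax, which encodes CD11c, was at 45.0 to 59.7 FPKM in ABCs and at most 0.206 FPKM in any FO B library. Both populations were sorted as CD21lo, but RNA of Cr2, which encodes CD21, differed. It was at 127 to 166 FPKM in FO B (Aged) and at 0.745 to 8.39 FPKM in ABCs. Of the other cell types, the 6 T cell markers and the 5 NK cell markers were all under 1 FPKM on average in every group. Of the 8 macrophage and monocyte markers, Csf1r was under 1 FPKM in every library, and the list summed to between 71.7 and 88.2 FPKM in ABCs against 14.0 to 22.0 FPKM in FO B (Aged), mostly Ly6c2 with 61.3 to 84.1 FPKM in ABCs, where 5 of the 8 averaged under 1 FPKM. Neutrophil markers summed to at most 0.359 FPKM in ABCs and to 0.987 to 21.3 FPKM in FO B (Aged), and dendritic cell markers to 4.04 to 6.45 and 1.93 to 4.20 FPKM. The 5 plasma cell genes summed to between 179.9 and 210.4 FPKM in ABCs and to between 112 and 130.0 FPKM in FO B (Aged), mostly Xbp1. Of 4 tested, 3 were higher in ABCs in limma, with Jchain at 61.6, 40.5 and 12.5 FPKM compared with 2.73, 6.63 and 8.44, Prdm1 at 5.70, 4.74 and 2.93 FPKM compared with 0.713, 0.243 and 0.180, and Sdc1 at 9.54, 8.37 and 29.5 FPKM compared with 2.89, 3.76 and 2.69. Prdm1 reached the filter of 1 FPKM only through ABCs, and 19.4% of all genes tested were called higher in that comparison. The part of these lists in the results on immediate-early genes was not tested. Approximate depths, from the FPKM value of 1 read, lay between 7510000 and 9130000 mapped reads per library.

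The sequences just upstream of 5 of these genes are shown because immediate-early genes are known to be switched on through response elements near their start sites. They are the 250 bases before the RefSeq start site on GRCm38.p6, 5′ to 3′ on the strand of the gene. The start site window of 7 of the 10 genes was in the RefSeq table used. Those of Junb, with TGACG at -106, and Jund, with no match, are not printed. For neither were the bases after the window found in an annotated transcript. The Jund window ends at base 70697738, upstream of the annotated gene start at 70698949, so its lack of a match does not describe that start. Of 5 windows of Egr2, 3 overlap, end at the start of an annotated transcript and hold the same CArG box, and 1 of these is shown, chosen after the matches were seen. Of the other 2, 1 holds CCTTTTTTGG at -72 and 1 holds no match. Capitals mark the CArG box bound by SRF (CC, 6 A or T, GG), the cAMP response element written TGACNTCA, its core TGACG, and the AP-1 site TGANTCA, searched on both strands, where the core can lie within the longer element.
Fos, chr12:85473640-85473889, plus strand: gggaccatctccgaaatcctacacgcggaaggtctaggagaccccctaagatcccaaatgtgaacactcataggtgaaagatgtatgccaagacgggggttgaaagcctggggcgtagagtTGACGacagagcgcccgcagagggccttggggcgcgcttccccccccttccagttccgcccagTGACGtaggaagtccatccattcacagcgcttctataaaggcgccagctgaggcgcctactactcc
Fosb, chr7:19310046-19310295, minus strand: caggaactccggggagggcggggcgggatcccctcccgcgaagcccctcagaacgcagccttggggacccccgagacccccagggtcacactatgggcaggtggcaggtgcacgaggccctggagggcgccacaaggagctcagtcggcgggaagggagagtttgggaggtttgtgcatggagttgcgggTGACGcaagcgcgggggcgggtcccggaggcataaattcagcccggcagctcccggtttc
Jun, chr4:95052223-95052472, minus strand: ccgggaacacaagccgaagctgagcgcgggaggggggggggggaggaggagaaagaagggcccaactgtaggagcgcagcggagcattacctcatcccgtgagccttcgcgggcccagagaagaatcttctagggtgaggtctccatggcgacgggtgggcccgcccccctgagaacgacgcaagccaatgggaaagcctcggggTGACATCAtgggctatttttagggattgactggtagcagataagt
Egr2, chr10:67537619-67537868, plus strand: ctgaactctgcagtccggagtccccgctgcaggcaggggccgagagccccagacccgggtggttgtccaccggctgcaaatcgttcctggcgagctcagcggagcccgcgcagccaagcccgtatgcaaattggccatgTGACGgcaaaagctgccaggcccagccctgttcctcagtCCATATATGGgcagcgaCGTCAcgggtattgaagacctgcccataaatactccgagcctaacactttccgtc
Nr4a1, chr15:101266596-101266845, plus strand: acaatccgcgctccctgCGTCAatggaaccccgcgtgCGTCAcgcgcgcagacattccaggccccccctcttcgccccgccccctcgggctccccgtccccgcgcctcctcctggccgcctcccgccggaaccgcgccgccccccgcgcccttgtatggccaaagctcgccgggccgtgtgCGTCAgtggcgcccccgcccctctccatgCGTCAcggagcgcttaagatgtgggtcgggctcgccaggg

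Counted from the start site to the first base of a match, the Fos window holds TGACG at -129 and -66, and the Fosb window holds it at -60. The Jun window holds TGACATCA at -45, a known AP-1 and CREB family site of this promoter. In the Egr2 window a CArG box, CCATATATGG, lies at -72, with TGACG at -111 and its reverse complement CGTCA at -55. Nr4a1 has CGTCA at -233, -213, -69 and -40. Of the windows printed, only that of Egr2 holds a CArG box, and those of Fos, Fosb, Jun and Nr4a1 hold none. Bases further upstream than 250 were not searched. The Egr motif GCGNGGGCG was found in the Fosb window at -50 and in the Nr4a1 window at -60. Among 32817 windows of the same length, 1.47% hold a CArG box, 7.49% hold TGACNTCA, 17.7% hold TGACG, 6.75% hold TGANTCA and 4.7% hold the Egr motif. These matches are letters in a window and not measured binding. Fos, Fosb, Jun and Egr2 were higher in ABCs than in FO B (Aged) and Nr4a1 was not shown to differ, as described below gene by gene.

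The genes lie on 8 chromosomes of the mouse genome (mm10 coordinates, GENCODE M21), and all 10 are annotated as protein-coding. Ier2 (chromosome 8, 84661331 to 84662852, minus strand), Junb (chromosome 8, 84974484 to 84978718, minus strand) and Jund (chromosome 8, 70698949 to 70700616, plus strand) share a chromosome, with 311631 bases between Ier2 and Junb. Jun (chromosome 4, 95049034 to 95052222, minus strand), Jund and Ier2 have 1 annotated exon each. Fos spans 85473890 to 85477273 on the plus strand of chromosome 12, Fosb 19302696 to 19310051 on the minus strand of chromosome 7, Egr2 67535475 to 67542188 on the plus strand of chromosome 10, Egr3 70077203 to 70082614 on the plus strand of chromosome 14, and Nr4a1 101254269 to 101274795 on the plus strand of chromosome 15. Egr1 lies on chromosome 18. Jun, Junb and Jund each overlap a gene on the opposite strand (Junos, Prdx2 and Gm11175), and the library kit does not mark strand, so that reads of the overlaps cannot be assigned.

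The 3 comparisons were ABCs against FO B cells of the same age, FO B cells between ages, and ABCs against FO B (Young). They share groups, so they are not independent of each other, and their values are given side by side. A gene was called at a Benjamini-Hochberg FDR under 0.05 in limma, fitted on log2(FPKM + 1) across all genes that passed the filter. All log2 fold changes are on that scale, where added pseudocounts shrink the change of a lowly expressed gene such as Fosb. In ABCs against FO B (Aged), 7 of the 10 genes were higher (Fos, Fosb, Jun, Junb, Egr1, Egr2 and Ier2), 1 was lower (Egr3), and Jund and Nr4a1 were not called. With no filter on low values, 4 were called higher, since Fosb, Junb and Ier2 did not pass, and Egr3 was still called lower. Among all 10412 genes tested, 19.4% were called higher and 16.5% lower. In FO B (Aged) against FO B (Young), 2 of the 10 (Junb and Ier2) were higher and 0 were lower, where 0.346% of 10122 genes were called higher and 0.119% lower.

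At an unadjusted limma p under 0.05, 7 of the 10 genes were higher in FO B (Aged) than in FO B (Young) and 0 were lower, and 6.96% of all genes tested were higher and 5.87% lower by that rule. In ABCs against FO B (Young), the same 7 genes were higher and Egr3 was lower as against FO B (Aged), with 21.6% of 10438 genes called higher and 19.1% lower. The median log2 fold change of the 10 genes was 1.09 in ABCs against FO B (Aged), 0.43 in FO B (Aged) against FO B (Young) and 1.56 in ABCs against FO B (Young), beside medians of all genes tested of -0.01, 0.00 and -0.01. At a stricter rule, FDR under 0.01 with a log2 fold change over 2.3, 0 of the 10 were higher in ABCs than in FO B (Aged), where 1.49% of all genes were, and 3 (Fos, Fosb and Egr1) were higher in ABCs than in FO B (Young), where 1.72% of all genes were.

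Every ABC library lay above every FO B (Aged) library for 7 of the 10 genes and below for 1, shares reached by 26.3% of all genes in each direction. Every FO B (Aged) library lay above every FO B (Young) library for 6 of the 10 (Fosb, Jun, Junb, Jund, Egr1 and Ier2) and below for 0, against 9.64% and 8.96% of all genes. Between ABCs and FO B (Young) it was 7 above and 1 below, against 27.7% and 27.6% of all genes. In each of these cases an exact two-sided test on mean FPKM, permuting libraries, gave p = 0.1, which is the smallest value that 3 against 3 libraries can give.

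**Figure D1:**
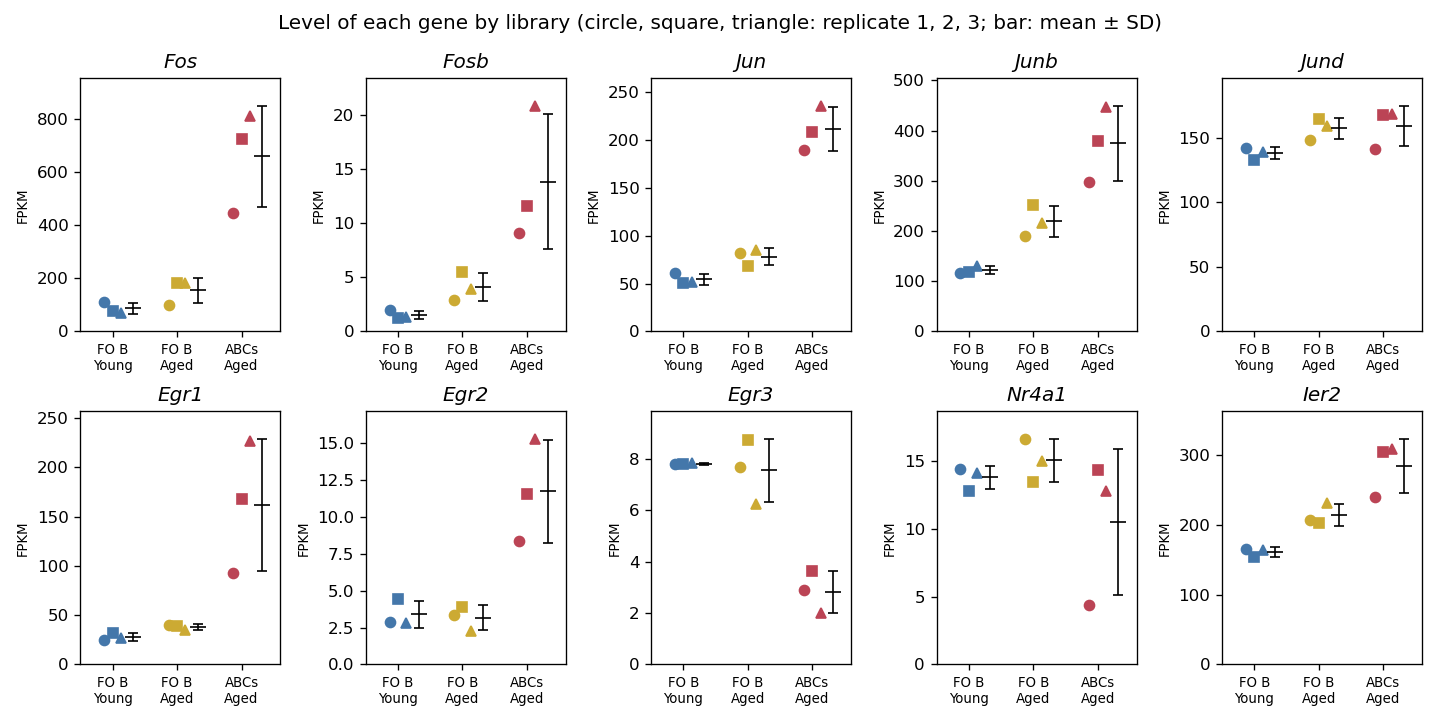
FPKM of the 10 genes in 9 libraries, 1 panel per gene with its own axis from 0. Points are libraries (circle, square and triangle for replicate 1, 2 and 3) and bars are the mean and SD of 3 libraries. Fos, Fosb, Jun, Junb, Egr1, Egr2 and Ier2 have all 3 ABC libraries above all 6 FO B libraries, and Egr3 has them below.

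Fos encodes the founding Fos subunit of AP-1. It was at 111, 77.6 and 70.5 FPKM in FO B (Young), at 97.7, 184 and 180.4 FPKM in FO B (Aged), and at 444, 722 and 809.8 FPKM in ABCs. All 3 ABC libraries exceeded all FO B libraries, whereas 1 FO B (Aged) library lay within the range of FO B (Young). The mean of 659 ± 191 FPKM (SD, n = 3) in ABCs was 4.28 times that of FO B (Aged), with a log2 fold change of 2.1 ± 0.30 (SE) and a limma FDR of 0.00200. Against FO B (Young), the log2 fold change was 2.90, with an FDR of 0.000183. The difference between FO B groups, 0.80 on the log2 scale with a 95% interval from 0.22 to 1.37, did not pass (FDR = 0.237). In ABCs, Fos stood between the 97.7 and 98.8 percentiles of genes with at least 1 FPKM, compared with 85.4 to 90.9 in FO B (Young).

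Fosb, a close relative of Fos that is lowly expressed in resting lymphocytes, was the least abundant of the 10 in FO B (Young). It was at 1.95, 1.21 and 1.36 FPKM in FO B (Young), at 2.89, 5.47 and 3.91 FPKM in FO B (Aged), and at 9.12, 11.5 and 20.8 FPKM in ABCs. The groups did not overlap in any of the comparisons. These levels rest on few reads. The FPKM steps gave 143 reads over the 3 FO B (Young) libraries, 401 over FO B (Aged) and 1255 over ABCs. The log2 fold change in ABCs was 1.50 ± 0.31 (SE) against FO B (Aged) with a limma FDR of 0.00858, and that between FO B groups was 1.0, with a 95% interval from 0.52 to 1.48 and an FDR of 0.109.

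Jun, the Jun subunit most closely tied to stress and mitogen signaling, was at 60.9, 50.7 and 51.3 FPKM in FO B (Young), at 81.8, 68.3 and 84.5 FPKM in FO B (Aged), and at 189.6, 208 and 236 FPKM in ABCs. The ABC libraries lay together and far from the rest, with a coefficient of variation of 11.0% in ABCs compared with 29.0% for Fos. The log2 fold change against FO B (Aged) was 1.42 ± 0.11 (SE), and its FDR of 0.000170 in limma was the lowest of the 10. Between FO B groups the log2 fold change of Jun was 0.52 with an FDR of 0.0966. Without FO B (Aged) replicate 2 it was 0.61 and passed, with an FDR of 0.0383.

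Junb is a Jun subunit with weaker transactivation than Jun and is abundant in lymphocytes. It was at 116, 118 and 131 FPKM in FO B (Young), at 190.3, 251 and 217 FPKM in FO B (Aged), and at 298, 379.5 and 448 FPKM in ABCs. The 3 groups formed 3 separate steps. Junb was higher in ABCs than in FO B (Aged) by 0.76 ± 0.16 (SE) on the log2 scale (limma FDR = 0.010) and in FO B (Aged) than in FO B (Young) by 0.84 ± 0.10 (limma FDR = 0.0118). The second of these calls was lost without FO B (Young) replicate 1 (FDR = 0.0684) or replicate 2 (FDR = 0.0643), with no filter (FDR = 0.247), with no trend (FDR = 0.0612) and with all 9 libraries fitted jointly (FDR = 0.0809). Prdx2, the gene that overlaps Junb, was higher in ABCs than in FO B (Aged) by 0.33 on the log2 scale (FDR = 0.0117), and its part in the Junb values was not tested.

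Jund is the Jun subunit known for constitutive rather than induced expression. It was at 142, 133 and 139 FPKM in FO B (Young), at 148, 165 and 159 FPKM in FO B (Aged), and at 141, 168 and 169 FPKM in ABCs. ABCs and FO B (Aged) overlapped, and the log2 fold change of 0.01 had a 95% interval from -0.20 to 0.22 (FDR = 0.927 in limma). Against FO B (Young), ABCs differed by 0.20 with an interval from 0.00 to 0.39 (FDR = 0.0969). Of 15 other settings, that comparison passed in 1, without ABC replicate 1, at 0.28 and an FDR of 0.0210. FO B (Aged) lay above FO B (Young) without overlap, by 0.19 with an interval from 0.05 to 0.32, but did not pass (FDR = 0.226).

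The makeup of the Jun family was compared within each library. Jund made up 44.0% ± 0.634 (SD, n = 3) of the summed FPKM of Jun, Junb and Jund in FO B (Young), 34.6% ± 0.642 in FO B (Aged) and 21.5% ± 1.46 in ABCs, with no overlap between groups. The share of Jun was 17.3% ± 1.61 in FO B (Young), 17.3% ± 2.82 in FO B (Aged) and 28.5% ± 1.47 in ABCs, and the FO B groups overlapped (exact permutation p = 1.0). The share of Junb was 38.7% ± 2.21, 48.1% ± 3.42 and 50.1% ± 2.57, and ABCs overlapped with FO B (Aged) (exact permutation p = 0.4). Fos and Fosb together were at 0.280 ± 0.0675 of the Jun family sum in FO B (Young), at 0.343 ± 0.0904 in FO B (Aged) and at 0.889 ± 0.145 in ABCs. In ABC replicates 2 and 3 these ratios were 0.970 and 0.975, so that Fos family RNA was nearly as abundant as that of the 3 Jun genes. Exact two-sided permutation tests gave p = 0.1 for the Jund share in all 3 comparisons and for the ratio of Fos to Jun family in ABCs against either FO B group, and p = 0.3 for that ratio between FO B groups. These ratios are taken within a library, so that they do not depend on how libraries were scaled to each other.

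**Figure D2:**
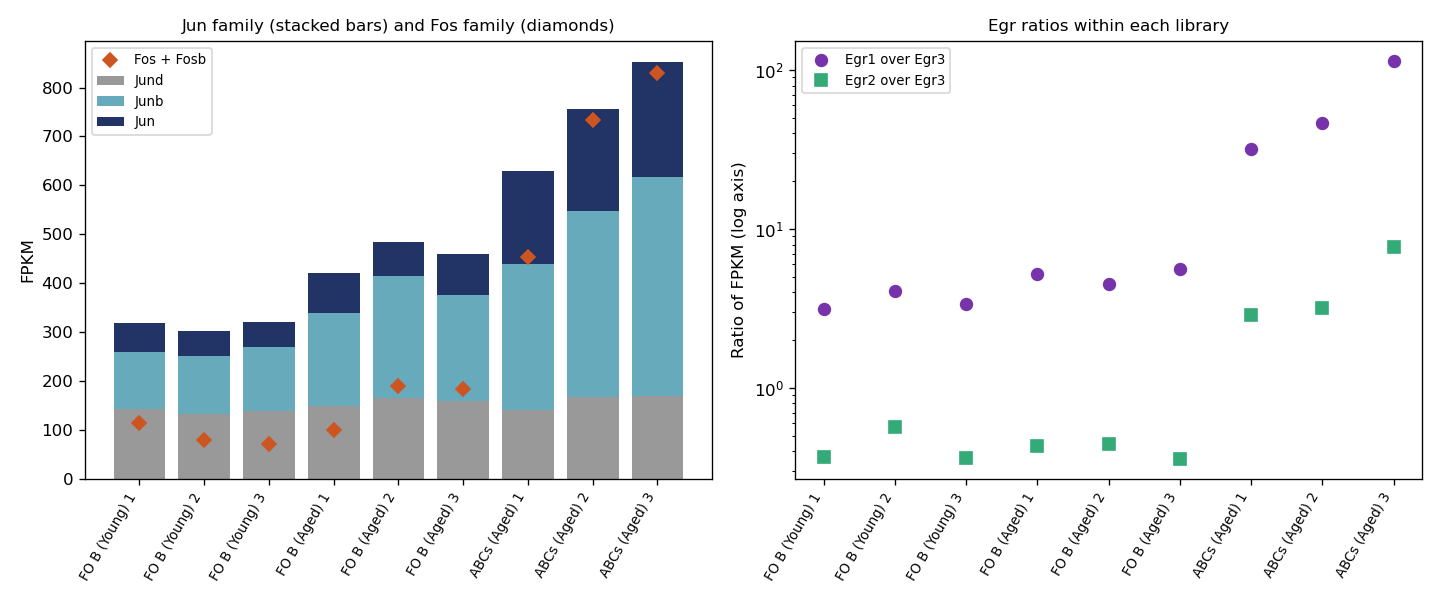
Left, stacked bars give FPKM of Jund, Junb and Jun in each library and diamonds give Fos and Fosb summed. Right, the ratio of Egr1 or Egr2 to Egr3 in each library on a log axis. Jund differs little in height between libraries while Jun, Junb and the diamonds are higher in ABCs, and both Egr ratios are higher in the 3 ABC libraries than in any FO B library.

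Egr1, the best known induced zinc finger factor downstream of ERK, was at 24.4, 31.8 and 26.5 FPKM in FO B (Young), at 40.1, 39.2 and 34.9 FPKM in FO B (Aged), and at 92.5, 168 and 227 FPKM in ABCs. No groups overlapped, and the ABC libraries spread over a wide range (162 ± 67.2 FPKM, SD, n = 3). The log2 fold change in ABCs was 1.97 ± 0.29 (SE) against FO B (Aged), with a limma FDR of 0.00219, and 2.43 against FO B (Young). Between FO B groups it was 0.46, with a 95% interval from 0.22 to 0.69 and an FDR of 0.125.

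Egr2, which together with Egr3 is known for restraining lymphocyte activation, was at 2.86, 4.46 and 2.83 FPKM in FO B (Young), at 3.35, 3.89 and 2.24 FPKM in FO B (Aged), and at 8.36, 11.5 and 15.3 FPKM in ABCs. The FO B groups overlapped, and all ABC libraries were above them. Read counts recovered from the FPKM steps summed to 247 in FO B (Young), 236 in FO B (Aged) and 826 in ABCs. The log2 fold change in ABCs was 1.60 ± 0.24 (SE) against FO B (Aged), with a limma FDR of 0.00228, and that between FO B groups was -0.08, with a 95% interval from -0.54 to 0.39.

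Egr3 binds the same DNA motif as Egr1 and Egr2 but had the opposite pattern. It was at 7.80, 7.80 and 7.85 FPKM in FO B (Young), at 7.70, 8.72 and 6.26 FPKM in FO B (Aged), and at 2.88, 3.62 and 1.99 FPKM in ABCs. All ABC libraries were below all FO B libraries. The mean in FO B (Aged) was 2.67 times that in ABCs, and the log2 fold change was -1.17 ± 0.19 (SE) with a limma FDR of 0.00361. Between FO B groups it was -0.05, with a 95% interval from -0.33 to 0.22. The Egr3 values in ABCs rest on about 86, 119 and 60 reads, approximated from the longest annotated transcript.

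Within a library, Egr1 was 3.13 to 4.08 times Egr3 in FO B (Young) and 4.50 to 5.57 times in FO B (Aged). In ABCs the ratio was 32.1, 46.3 and 114, with a mean of 64.1 that fell to 39.2 without replicate 3. Egr2 over Egr3 was between 0.358 and 0.572 in the 6 FO B libraries and 2.90, 3.18 and 7.71 in ABCs, where the mean of 4.60 was 3.04 without replicate 3. Thus Egr3 was more abundant than Egr2 in all FO B libraries and less abundant in all ABC libraries. Both ratios were higher in ABCs than in FO B (Aged) in 3 of 3 libraries, with p = 0.1 in exact two-sided permutation tests.

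Nr4a1 was at 14.4, 12.8 and 14.1 FPKM in FO B (Young), at 16.7, 13.5 and 15.0 FPKM in FO B (Aged), and at 4.36, 14.3 and 12.8 FPKM in ABCs. Among ABC libraries, replicates 2 and 3 lay within the range of FO B cells and replicate 1 was far below it. The log2 fold change against FO B (Aged) was -0.62, with a 95% interval from -1.49 to 0.26 and a limma FDR of 0.231. Without ABC replicate 1 it was -0.14, with an FDR of 0.443. Reads recovered from the FPKM steps were 81, 294 and 240 in the ABC libraries. Egr1 over Nr4a1 was 21.2, 11.7 and 17.7 in ABCs and between 1.70 and 2.91 in the FO B libraries.

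Ier2, a small nuclear immediate-early protein, was at 166, 153 and 164 FPKM in FO B (Young), at 208, 202 and 232 FPKM in FO B (Aged), and at 239.8, 305 and 309.8 FPKM in ABCs. The groups did not overlap, but the lowest ABC library was close to the highest FO B (Aged) library. The log2 fold change was 0.40 ± 0.11 (SE) in ABCs against FO B (Aged) with a limma FDR of 0.0287. The call was lost without FO B (Aged) replicate 1 (FDR = 0.0938) or 2 (FDR = 0.0902) and without ABC replicate 2 (FDR = 0.0786) or 3 (FDR = 0.0522), and also with no filter (FDR = 0.141) and under quantile normalization (FDR = 0.0519). Between FO B groups it was 0.41 ± 0.07 with an FDR of 0.0494. That call was lost in 12 of 15 other settings, among them leaving out any FO B (Young) library (FDR from 0.119 to 0.186), FO B (Aged) replicate 1 (FDR = 0.137) or replicate 3 (FDR = 0.0675). Against FO B (Young), ABCs were higher by 0.81 (FDR = 0.00108), a call kept in all 15 settings.

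**Figure D3:**
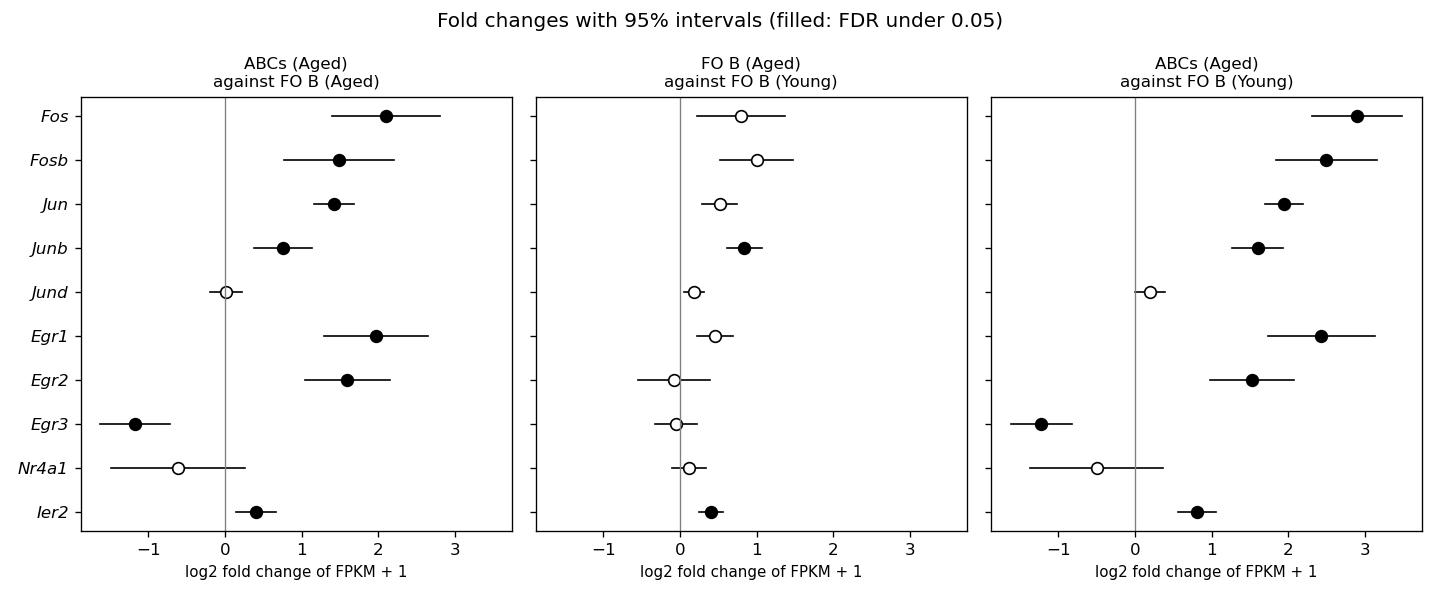
Limma log2 fold changes of FPKM + 1 for the 10 genes in the 3 comparisons, with 95% intervals as lines. Filled points passed an FDR of 0.05. The first panel has 7 filled points to the right of 0 and Egr3 to the left, the second has Junb and Ier2 filled, and the third has the same 8 genes filled as the first.

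The order of the genes by level changed with the group. In FO B (Young), the mean levels ran from Ier2 (161 FPKM) through Jund (138 FPKM), Junb (122 FPKM), Fos (86.5 FPKM), Jun (54.3 FPKM), Egr1 (27.6 FPKM), Nr4a1 (13.8 FPKM), Egr3 (7.81 FPKM) and Egr2 (3.38 FPKM) to Fosb (1.51 FPKM), and no neighbours in that order overlapped. In FO B (Aged), Junb at 219 ± 30.4 FPKM and Ier2 at 214 ± 15.8 FPKM overlapped at the top, and Jund at 157 ± 8.23 overlapped with Fos at 154 ± 48.7 FPKM. Fos was highest in ABCs at 659 ± 191 FPKM, followed by Junb at 375 ± 75.0, Ier2 at 285 ± 39.2, Jun at 211 ± 23.2, Egr1 at 162 ± 67.2 and Jund at 159 ± 15.8 FPKM (SD, n = 3). Of these neighbours, only Ier2 and Jun did not overlap. Fosb, Egr2 and Nr4a1 overlapped at 13.8 ± 6.19, 11.7 ± 3.48 and 10.5 ± 5.37 FPKM in ABCs, and Egr3 was lowest at 2.83 ± 0.819 FPKM, below every library of the others.

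The ABC libraries differed among themselves in the same way for most of the 10 genes. Replicate 1 was the lowest ABC library for 9 of the 10 genes, and replicate 3 was the highest for 8 and the lowest for Egr3. Among FO B (Aged) libraries, replicate 2 was highest for 6 genes, and among FO B (Young) libraries, replicate 1 was highest for 6. The order of replicates was not counted over all genes, so whether it is particular to the 10 was not tested. Leaving out ABC replicate 1 gave log2 fold changes against FO B (Aged) of 1.50 for Jun and 0.92 for Junb, and all 8 called genes stayed called.

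Genes with related functions were read from lists. Of 10 other AP-1 family genes, 6 were tested in ABCs against FO B (Aged), of which 3 were higher and 1 was lower. The shares of all genes tested were 19.4% higher and 16.5% lower. Batf3, Jdp2 and Atf3 reached the filter only through ABCs, so the count is a description. Batf, a lymphoid AP-1 factor that pairs with Jun proteins, was at 41.1, 34.8 and 39.9 FPKM in FO B (Aged) and at 107, 80.1 and 95.6 FPKM in ABCs, a log2 fold change of 1.26 with a limma FDR of 0.000333. Jdp2, a Jun dimerization partner that represses AP-1, was at 0.751 to 1.0 FPKM and at 2.87 to 4.83 FPKM (log2 fold change 1.41, limma FDR 0.00184). Batf3, another partner of Jun, was listed at 0 in all FO B (Aged) libraries and at 3.42, 1.99 and 9.46 FPKM in ABCs. In FO B (Aged) against FO B (Young), 0 of 3 tested passed in limma, where 0.346% of all genes were called higher and 0.119% lower.

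Of 5 Egr and Nr4a relatives and Nab corepressors, 2 were tested. Nab2, which binds and represses Egr proteins and is itself an Egr target, was lower in ABCs, at 4.27, 4.44 and 6.27 FPKM compared with 10.5, 8.90 and 9.08 FPKM in FO B (Aged) (log2 fold change -0.82, limma FDR 0.00580). Nr4a2 and Nr4a3 were under 1 FPKM in every library. Of 16 MAP kinase, SRF and CREB genes, 0 were higher in ABCs than in FO B (Aged) and 4 were lower, and the list median was -0.19. Among all genes tested, 19.4% were called higher and 16.5% lower. Mapk3, which encodes ERK1, was lower by a log2 fold change of -0.75 (limma FDR 0.00920), Map2k1, which encodes MEK1, by -0.54 (limma FDR 0.00416) and Braf by -0.51 (limma FDR 0.00946). These are RNA levels and not kinase activity. None was called between FO B groups (0 of 16 in limma), where 0.346% of all genes tested were called higher and 0.119% lower.

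Of 21 other immediate-early genes tested, 7 were higher in ABCs than in FO B (Aged), 3 were lower and 11 did not pass, and their median log2 fold change was -0.09. The calls over all genes tested were 19.4% higher and 16.5% lower. Dusp1, a phosphatase that switches off MAP kinases, was at 44.4, 93.4 and 76.2 FPKM in FO B (Aged) and at 97.9, 186 and 274 FPKM in ABCs (log2 fold change 1.31, limma FDR 0.0387). Rhob, a small GTPase, was at 4.63, 4.56 and 6.97 FPKM and at 10.9, 17.4 and 16.6 FPKM (log2 fold change 1.32, limma FDR 0.00336). Myc, an induced regulator of growth, was lower in ABCs, at 16.8, 15.1 and 11.1 FPKM compared with 36.3, 35.3 and 32.8 FPKM (log2 fold change -1.24, limma FDR 0.000862). With age in FO B cells, 1 of the 21 passed, where 0.346% of all genes tested were called higher. Socs3, a feedback inhibitor of cytokine signaling, was higher by 1.88 (limma FDR 0.00356), at 16.6, 11.5 and 14.8 FPKM in FO B (Aged) and at 3.49, 2.40 and 3.56 FPKM in FO B (Young).

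Heat shock genes respond to the handling of cells as well as to other stress, and were read as a list of 11. Of 8 tested, 0 were higher and 1 (Hspd1, -0.44, limma FDR 0.0400) was lower in ABCs than in FO B (Aged), and 0 passed between FO B groups. Over all genes tested, 19.4% were higher and 16.5% lower in the first comparison, and 0.346% and 0.119% in the second. The median log2 fold change of the 8 was -0.27 in ABCs against FO B (Aged) and 0.41 in FO B (Aged) against FO B (Young). Medians of all genes tested were -0.01 and 0.00. The summed level of the 11 was 1587 to 1799 FPKM in FO B (Young). It was 3060, 1914 and 2883 FPKM in FO B (Aged) and 2490, 1790 and 2554 FPKM in ABCs. Hspa8 and Hsp90ab1 made up most of this sum in every library. Hspa1a, Hspa1b and Hspb1 averaged under 1 FPKM in every group and were not tested. In FO B (Aged) the lowest library of this sum was replicate 2, in which Jun, Nr4a1 and Ier2 were also lowest and Fos, Fosb, Junb, Jund, Egr2 and Egr3 were highest. In ABCs the lowest was again replicate 2, in which none of the 10 genes was lowest. In ABCs against FO B (Young), 3 heat shock genes were higher and 0 were lower, where 21.6% of all genes tested were higher and 19.1% lower. The time from tissue to lysis was not given in the sources used here, and its part in these results was not tested.

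**Figure D4:**
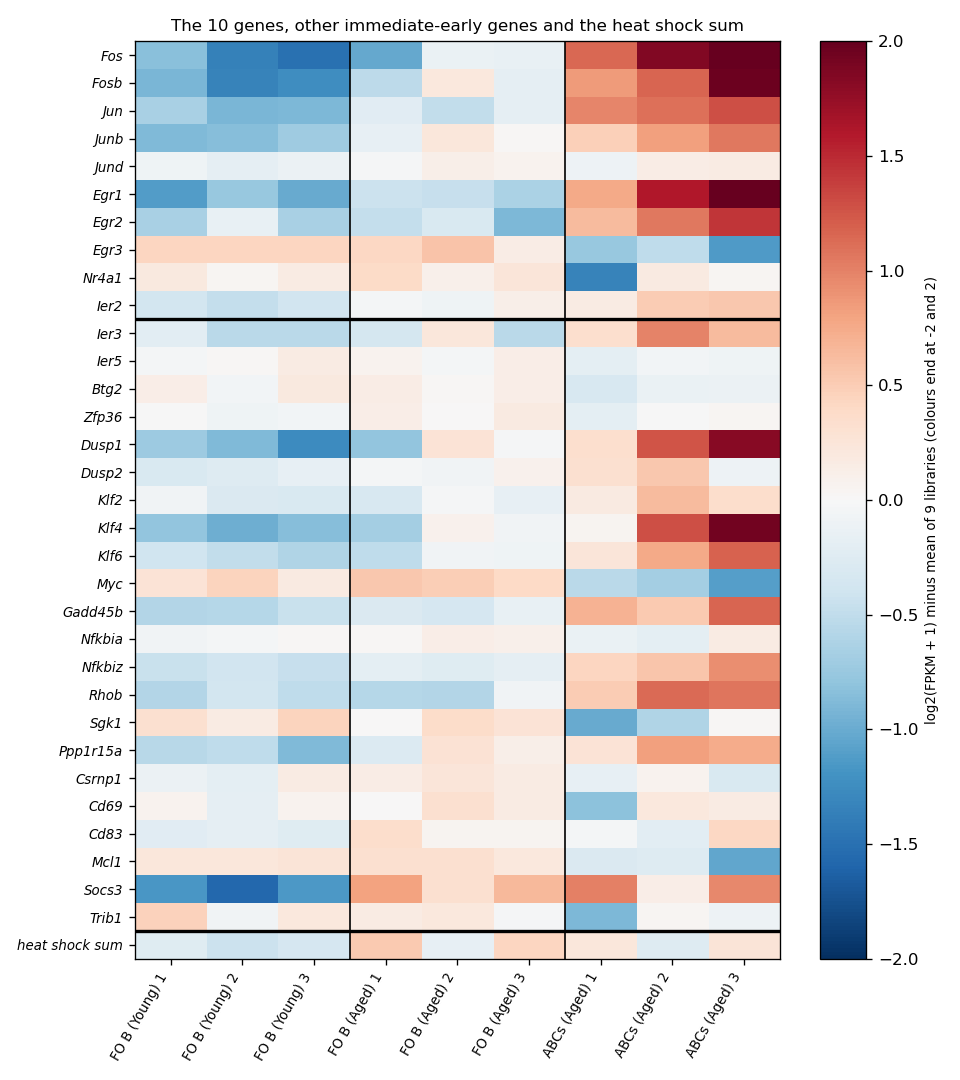
Each cell is log2(FPKM + 1) of a gene in a library minus its mean over 9 libraries, with colours ending at -2 and 2. Rows are the 10 genes, 22 other immediate-early genes and the summed FPKM of 11 heat shock genes. Red cells of Fos, Fosb, Egr1, Dusp1 and Klf4 deepen from ABC replicate 1 to the other ABC libraries, and the heat shock row has its palest or bluest aged libraries at replicate 2.

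The genes with levels most like the group were found among 10365 others by Pearson correlation with the mean of the standardized log2(FPKM + 1) of the 10 genes over 9 libraries, given as a description since the libraries share groups. Klf4 (r = 0.976), Tmem55a (r = 0.970), Tmem50a (r = 0.970), Stam2 (r = 0.967) and Dusp1 (r = 0.966) were nearest. Klf4, a zinc finger factor with immediate-early behavior, was at 1.36 to 1.71 FPKM in FO B (Young), at 1.91, 3.96 and 3.45 FPKM in FO B (Aged) and at 3.83, 10.4 and 16.8 FPKM in ABCs. Over deviations from the group means, which leave out the differences between groups, the nearest were Smim7 (r = 0.976), Mad1l1 (r = 0.969), Sugp1 (r = 0.967), Klf4 (r = 0.965) and Cd69 (r = 0.959). Cd69, an early activation antigen, was at 48.2 FPKM in ABC replicate 1 and at 100 and 96.0 FPKM in replicates 2 and 3, the same order of low and high libraries as Nr4a1. Among the 10 genes themselves, r with their mean over 9 libraries was lowest for Egr3 (-0.79) and Nr4a1 (-0.07). It lay between 0.82 and 0.97 for the other 8. Each gene is part of that mean, so these values are a description. Over deviations from the group means, r was -0.17 for Egr3, 0.48 for Jun, 0.62 for Egr2 and 0.88 for Nr4a1. For the rest it lay between 0.78 and 0.95.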

How the data were processed

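Samples were grouped by their labels, with 3 libraries each of FO B (Young), FO B (Aged) and ABCs (Aged). FPKM per gene symbol was deposited by the authors in 1 table per library. According to the submitters' processing notes, reads were mapped to mm10 with TopHat2 2.1.1, Bowtie2 2.2.8 and SAMtools 0.1.18 and quantified with Cuffdiff 2.2.1; the methods of the study name other versions and Cufflinks, and the gene annotation is not given in the sources used here. The SMART-Seq HT and Nextera kits used for cDNA and libraries do not mark strand. If Cuffdiff scaled libraries together, that scaling is in the values.

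log2(FPKM + 1) was analysed by limma 3.58.1 (R 4.3.3; lmFit, then eBayes with its trend option) for the 2 groups compared, keeping genes whose mean reached 1 FPKM. P-values were adjusted by Benjamini-Hochberg over all genes tested. Single genes and ratios were also compared with exact two-sided permutation tests over 20 orders. Recovery of known changes by this fit was tested on simulated data. Other steps used Python 3.11.15, numpy 2.4.6 and pandas 2.3.3, and figures matplotlib 3.10.9. Reads were recovered from the value of 1 read only where all 9 libraries gave numbers within 0.02 of a whole read (Fosb, Egr2 and Nr4a1), and the approximate depths rest on annotated lengths. Upstream sequences were the first 250 bases of RefSeq start site windows, and none was printed for Egr1, Egr3 or Ier2, which had no window in that table, or for Junb and Jund.

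The 10 genes and all lists were chosen with earlier results of these data known. Named beside them were up to 3 genes per related list with the largest absolute log2 fold change among those called in ABCs or between FO B groups, and the 5 genes most correlated with the group by each measure. Genes of the marker lists were named as checks of identity, and Nr4a2, Nr4a3, Prdx2 and the genes named only in a count or figure were singled out after their values were seen. Alternatives were a pseudocount of 0.1, omission of the filter or a minimum mean of 5 FPKM, quantile, upper-quartile and TPM scaling, no trend, a joint fit of 9 libraries, a block on replicate number, and leaving out each library.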

Additional observations from a re-analysis of the deposited data

How the results depend on the processing

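No direction of a called gene reversed in any of 15 alternatives. In ABCs against FO B (Aged), 7 genes were called higher, and with no filter on low values, where 24346 genes were tested and 2584 called in place of 10412 and 3739, the number was 4, with Fosb (FDR = 0.0822), Junb (FDR = 0.0879) and Ier2 (FDR = 0.141) lost in limma. With quantile normalization it was 6, with Ier2 lost (FDR = 0.0519). Leaving out each library gave 6 to 7 higher and 1 lower. In FO B (Aged) against FO B (Young), the 2 genes called higher became 0 with no filter, 0 without a trend and 0 with all 9 libraries in the fit, and 1 with a mean of at least 5 FPKM, 1 with quantile normalization, 1 with upper-quartile scaling and 1 with the replicate number as a block. Leaving out each library gave 0 to 3 there, with 0 lower throughout, and 19 to 69 genes of all tested were called, in place of 47; the joint fit of 9 libraries called 18. In ABCs against FO B (Young), 7 to 8 were higher and 1 was lower in all settings. Upper-quartile scaling moved the median of all genes to 0.15 in ABCs against FO B (Aged), with 23.5% of genes called higher and 5.79% lower, and to -0.12 between FO B groups; 7 higher and 1 lower of the 10 genes were called in ABCs under it.

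Replicate numbers were not shown to pair the libraries. Deviations of same-numbered ABC and FO B (Aged) libraries correlated at 0.0827, -0.0175 and 0.109, and those of FO B (Aged) and FO B (Young) at -0.0545, 0.141 and -0.0957. With the block, 3448 genes were called in ABCs against FO B (Aged) in place of 3739, and 37 in place of 47 between FO B groups. The cause of the lost calls was not tested. With 3 libraries a group, levels of Fosb and Egr2 in FO B cells and of Egr3 in ABCs rest on the fewest reads, with sums per group from 143 to 401.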
